A study of Homo sapiens with 8 samples.

Results

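PCBP2, PCBP1 and HNRNPK are the genes of 3 poly-C binding proteins with KH domains, and the data are the peaks of the RNA-binding protein PTB that lie on their transcribed strands. A peak was taken when it overlapped one of 3 spans on the same strand in hg19: PCBP2 at chr12:53845886-53874946 on the plus strand (29061 nt), PCBP1 at chr2:70314585-70316334 on the plus strand (1750 nt) and HNRNPK at chr9:86582998-86595569 on the minus strand (12572 nt). The 3 genes held 154 peaks of 266317 in all 5 deposited lists. The genes were chosen by the density of their peaks in these same lists, so peak counts and scores are given as a description, with no test.

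KH domains are folds that hold short single-stranded stretches of RNA or DNA, and those of the PCBP proteins and of hnRNP K favour runs of cytosine. PCBP1 (hnRNP E1) and PCBP2 (hnRNP E2) act in mRNA stability and translation, and hnRNP K acts in transcription, splicing and translation. PCBP1 is an intronless gene that arose by retrotransposition of a PCBP2 transcript. PTB (polypyrimidine tract binding protein, PTBP1) binds CU-rich RNA through RRM domains and is known as a repressor of many alternative exons, so both kinds of protein read pyrimidine-rich RNA.

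The study used GoldCLIP, in which a protein carrying a HaloTag is bound to beads covalently and the RNA crosslinked to it is turned into cDNA by an iCLIP-type library procedure. 293T cells, a human embryonic kidney line, carried a transgene for Halo-PTB or Halo-YFP, and all cultures were grown in puromycin. The groups were Halo-PTB cells under UVA, Halo-PTB cells under UVC, and 2 controls, Halo-PTB cells without UV and Halo-YFP cells under UVC, with 2 samples each. The labels name neither the promoter of the transgenes, nor the number of clones, nor any photoreactive nucleoside used with UVA. Each group came as 1 list with its samples pooled, and a list of published PTB iCLIP peaks from an earlier study was deposited beside them. No list has replicates or a stated depth, so no value has a replicate error and no comparison between lists was tested. They hold no measure of RNA level either, so more binding and more RNA of a gene cannot be told apart. The 3 genes held 61 of 83725 PTB UVA peaks, 49 of 118434 PTB UVC peaks and 32 of 58213 iCLIP peaks, against 10 of 3809 no-UV peaks and 2 of 2136 YFP peaks.

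PCBP2 carried peaks in every list. It had 35 peaks in the PTB UVA list, 31 in the PTB UVC list and 22 in the iCLIP list, against 8 in the no-UV list and 2 in the YFP list. That is 1.2 peaks per kb in UVA, 1.07 in UVC and 0.757 in iCLIP. Many of these peaks touch or repeat: merged where they lay within 20 nt of each other, they formed 22 UVA sites, 20 UVC sites and 18 iCLIP sites, against 3 no-UV sites and 1 YFP site. The peaks covered 1105 nt of the gene in UVA (3.8% of its length), 844 nt in UVC (2.9%) and 989 nt in iCLIP (3.4%). Covered length thus ran from 844 to 1105 nt in the 3 PTB lists, while the places differed. The UVC length includes the close pairs of peaks described below, and the lists differ in size.

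PCBP2 peaks of the UVA list lay mostly near the 3′ end of the gene. Positions are counted from 1 at the gene's 5′ end. Of 3 equal parts of the gene, the 5′ part held 2 UVA peaks, the middle part 7 and the 3′ part 26. A window of 2906 nt (10% of the gene) from nt 22598 to 25503 held 24 of the 35 UVA peaks. The same window held 9 of the 22 iCLIP peaks and 4 of the 31 UVC peaks, and no peak of either control list. The iCLIP peaks were also mostly in the 3′ part, with 0, 3 and 19 peaks from the 5′ to the 3′ part, but their densest window of that length lay slightly upstream, at nt 20213 to 23118, with 14 of 22 peaks. Between nt 20213 and 20792 the iCLIP list had 5 peaks and the UVA list none.

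**Figure D1:**
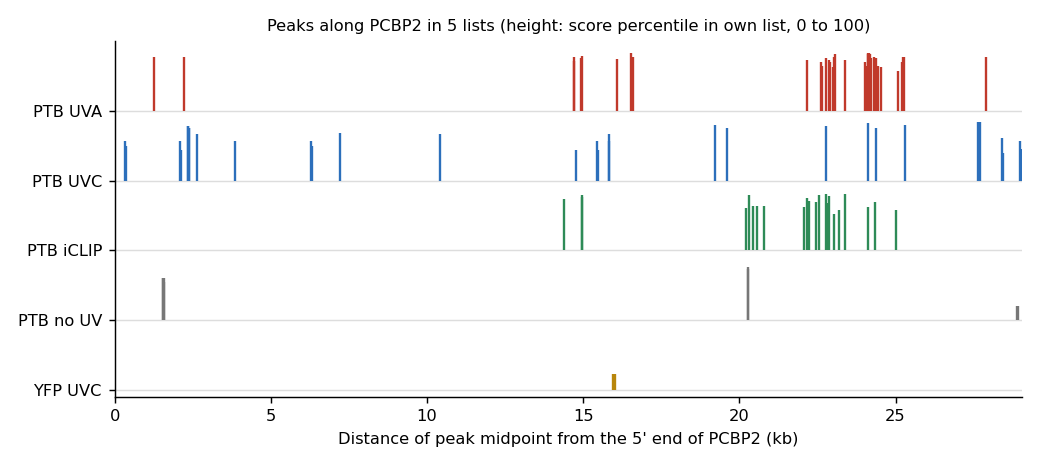
Each line is 1 peak of PCBP2, placed by the distance of its midpoint from the 5′ end of the gene (kb) in the 5 lists, and its height is the percentile of its score within its own list (0 to 100). UVA and iCLIP peaks crowd into the 3′ part of the gene (26 of 35 and 19 of 22), while UVC peaks run along its whole length.

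UVC peaks were spread along PCBP2, with 13, 7 and 11 in the 5′, middle and 3′ parts. The median gap between neighbouring UVC sites was 868 nt, and in UVA and iCLIP it was 197 and 146 nt. The spread of UVC peaks moved with a recurring shape, noticed in the data: 18 of the 31 peaks belonged to close pairs. In one kind, an 11-nt peak was followed directly by a second peak (8 peaks). In the other, a peak of 3 to 5 nt was followed by a second after a gap of 14 to 18 nt (10 peaks). The spaced pairs began at nt 330, 2105, 6295, 15438 and 28990, and the first peak of each was 4 nt wide with a score of 23. Such pairs made up 72.0% of all plus-strand UVC peaks and 16.6% of minus-strand ones, and all 8 no-UV peaks of PCBP2 had the touching form, as pairs made up 84.2% of all plus-strand no-UV peaks. Without the pairs, 13 UVC peaks were left, with 3, 3 and 7 in those parts. What makes the pairs was not tested.

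The score of a peak is the deposited value with a limit of 1000, and it ranks peaks within a list only. Where the listed p-value was above 0, the score was 10 times its negative log10 in 97.6% of UVA, 99.9% of UVC and 98.5% of iCLIP peaks. For peaks with a listed p-value of 0 this relation could not be checked. PCBP2 scores ran from 170 through a median of 486 to the limit of 1000 in UVA, from 17 through 29 to 280 in UVC, and from 64 through 126 to 252 in iCLIP. All 35 UVA peaks, 30 of 31 UVC peaks and all 22 iCLIP peaks scored above the median of their list, a side that held 49.8%, 49.7% and 49.9% of the whole lists. The top 10% of scores (10.0%, 10.6% and 10.0% of the lists, with ties) included 18 UVA, 10 UVC and 6 iCLIP peaks of PCBP2. The median peak of PCBP2 stood at percentile 90.1 in UVA, 78.6 in UVC and 82.4 in iCLIP. The no-UV peaks scored 16 to 31 and both YFP peaks scored 16.

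**Figure D2:**
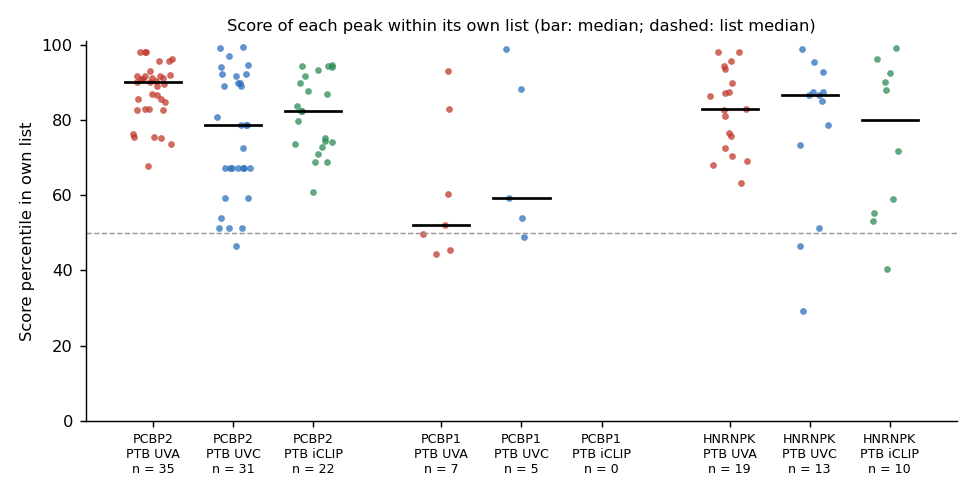
Each point is 1 peak, plotted by the percentile of its score within its own list (0 to 100), for each gene and each PTB list. Black bars are medians and the dashed line is the median of the list. PCBP2 medians stand at 90.1, 78.6 and 82.4, PCBP1 peaks straddle the line, and PCBP1 has no iCLIP peak.

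The 3 UVA peaks of PCBP2 at the score limit were at nt 16502 to 16572, 24112 to 24143 and 24144 to 24159. The last 2 touch each other inside an unbroken run of 5 UVA peaks from nt 24092 to 24231. The highest iCLIP peaks were at nt 23325 to 23404 (score 252), 22735 to 22791 (score 250) and 22509 to 22588 (score 246). The first of these overlapped a UVA peak with a score of 365, and the third overlapped no peak of another list. The highest UVC peaks were 2 touching ones at nt 27595 to 27658 (score 237) and 27659 to 27729 (score 280), 1332 nt before the 3′ end of the gene. Neither overlapped a UVA or an iCLIP peak, and the nearest UVA peak began at nt 27876. Next in rank came the UVC peak at nt 24089 to 24159 (score 78), which lay on the UVA run just named.

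PCBP2 had 3 sites, among the 45 formed by pooling the PTB lists, that held a peak of all 3. The first was chr12:53868620-53868797 (178 nt, nt 22735 to 22912 of the gene). It combined 3 UVA peaks with scores of 493, 390 and 314, 1 UVC peak with a score of 44 and 3 iCLIP peaks with scores of 250, 114 and 203. The second was chr12:53869974-53870116 (143 nt, nt 24089 to 24231), where the 5 UVA peaks scored 964, 1000, 1000, 886 and 451, the UVC peak 78 and the iCLIP peak 91. The third was chr12:53870183-53870338 (156 nt, nt 24298 to 24453), with 3 UVA peaks scoring 532, 469 and 228, a UVC peak at 39 and an iCLIP peak at 126. All 3 lay in the window from nt 22598 to 25503 that held most UVA peaks, and no control peak touched them. Of the other pooled sites, 10 held only UVA (22.2%, against 28% of pooled sites genome-wide), 16 only UVC (35.6%, against 38.8%) and 10 only iCLIP (22.2%, against 20.5%). A further 5 held UVA and iCLIP without UVC (11.1%, against 5.62%) and 1 held UVA and UVC without iCLIP (2.22%, against 3.65%). None held UVC and iCLIP without UVA, a class that made up 1.23% of pooled sites genome-wide. Genome-wide, 2.20% of pooled sites held a peak of all 3 lists, and 7.82% held a UVA and an iCLIP peak, with or without UVC.

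Upstream of that 3′ window, PCBP2 held fewer UVA peaks than inside it. Toward the 5′ end there were 2, at nt 1244 to 1292 (score 553) and 2197 to 2228 (score 516), and no UVA peak lay in the following stretch up to nt 14679. Then 4 UVA peaks at nt 14679 to 14970 scored 350, 503, 486 and 629. The last of these covered 2 overlapping iCLIP peaks, at nt 14928 to 14968 (score 178) and 14942 to 14954 (score 239). The UVC list had a single peak nearby, at nt 14756 to 14774 with a score of 20, which met neither list. Further UVA peaks lay at nt 16069 to 16082 (score 398), 16502 to 16572 (score 1000, the limit) and 16589 to 16609 (score 533). Just upstream of the window lay another, at nt 22162 to 22197 (score 367). Inside the 3′ window, at nt 25232 to 25268, UVA peaks with scores of 555 and 569 made the one PCBP2 site shared by UVA and UVC without iCLIP, with a UVC peak of score 53 at nt 25262 to 25315.

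The control peaks of PCBP2 were few in number, but the control lists are short. Of the 8 no-UV peaks, 2 overlapped an iCLIP peak, and 1 of the 2 YFP peaks overlapped a UVA peak. PCBP2 held 8 of 3809 no-UV peaks and 2 of 2136 YFP peaks. It held 35 of 83725 UVA peaks, 31 of 118434 UVC peaks and 22 of 58213 iCLIP peaks. As a share of its list, PCBP2 was thus higher in both controls than in any PTB list. The no-UV list had peaks at nt 1544 to 1593 (each listed more than once), 20260 to 20309 and 28874 to 28922, and the YFP list had them at nt 15954 to 16070. The iCLIP peak at nt 20257 to 20344 (score 227) shared 50 nt with the no-UV peaks there, whose scores of 31 and 30 were the highest of that list in the 3 genes. The UVA peak at nt 16069 to 16082 (score 398) shared 2 nt with a YFP peak. No UVC peak of PCBP2 overlapped a control peak. In the whole lists, 1.04% of UVA peaks, 1.01% of UVC peaks and 0.601% of iCLIP peaks overlapped a control peak. In PCBP2 the counts were 1 of 35 UVA peaks (2.86%), 0 of 31 UVC peaks and 1 of 22 iCLIP peaks (4.55%).

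HNRNPK, which encodes hnRNP K, had 19 UVA peaks, 13 UVC peaks and 10 iCLIP peaks, against none in either control list. That is 1.51, 1.03 and 0.795 peaks per kb, in 12, 12 and 7 sites. The UVA peaks covered 862 nt (6.86% of the gene), the UVC peaks 582 nt (4.63%) and the iCLIP peaks 674 nt (5.36%). Scores ran from 145 through a median of 316 to 1000 in UVA, from 16 through 35 to 166 in UVC, and from 36 through 125 to 697 in iCLIP. None of the UVC peaks here was part of a close pair. HNRNPK lies on the minus strand, where such pairs made up only 16.6% of all UVC peaks, against 72.0% on the plus strand.

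The densest part of HNRNPK in the UVA and iCLIP lists, all peaks taken, was a stretch around nt 5338 to 5941. Of the 9 iCLIP peaks at or above the list median score, 4 lay in that stretch and an equal 4 from nt 10560 on. All UVC peaks taken, they were densest toward the 3′ end, with 5 of 13 from nt 11356 on. Without the peaks below the list median score, that place was no denser than one further 5′. Of the 11 UVC peaks at or above the list median score, 3 lay in the window from nt 5413 to 6669. An equal 3 lay from nt 12211 on. The site chr9:86589629-86590157 (529 nt, nt 5413 to 5941) pooled 16 peaks of the 3 PTB lists. It held 9 UVA peaks with scores of 203 to 1000, among them the 2 UVA peaks of the gene at the limit, at nt 5625 to 5648 and 5649 to 5714. Its UVC peaks scored 36, 20 and 32, and its iCLIP peaks 36, 183, 88 and 52. The window of 1257 nt (10% of the gene) from nt 5338 to 6594 held 10 of 19 UVA, 3 of 13 UVC and 5 of 10 iCLIP peaks.

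Further 3′, 2 more HNRNPK sites held all 3 PTB lists. At chr9:86584874-86585010 (137 nt, nt 10560 to 10696) the UVA peak scored 188, the UVC peak 25 and the iCLIP peaks 306 and 213. At chr9:86584469-86584612 (144 nt, nt 10958 to 11101) the UVA peak scored 477, the UVC peak 35 and the iCLIP peak 697, the highest iCLIP score in the 3 genes. So the sites were shared while their order was not: UVA ranked the middle stretch first and iCLIP the 3′ one. Of the 16 pooled HNRNPK sites, 3 held all lists, 3 UVA and iCLIP, 1 UVA and UVC, 3 UVA only and 6 UVC only. No site held only iCLIP, a class that made up 20.5% of pooled sites genome-wide.

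**Figure D3:**
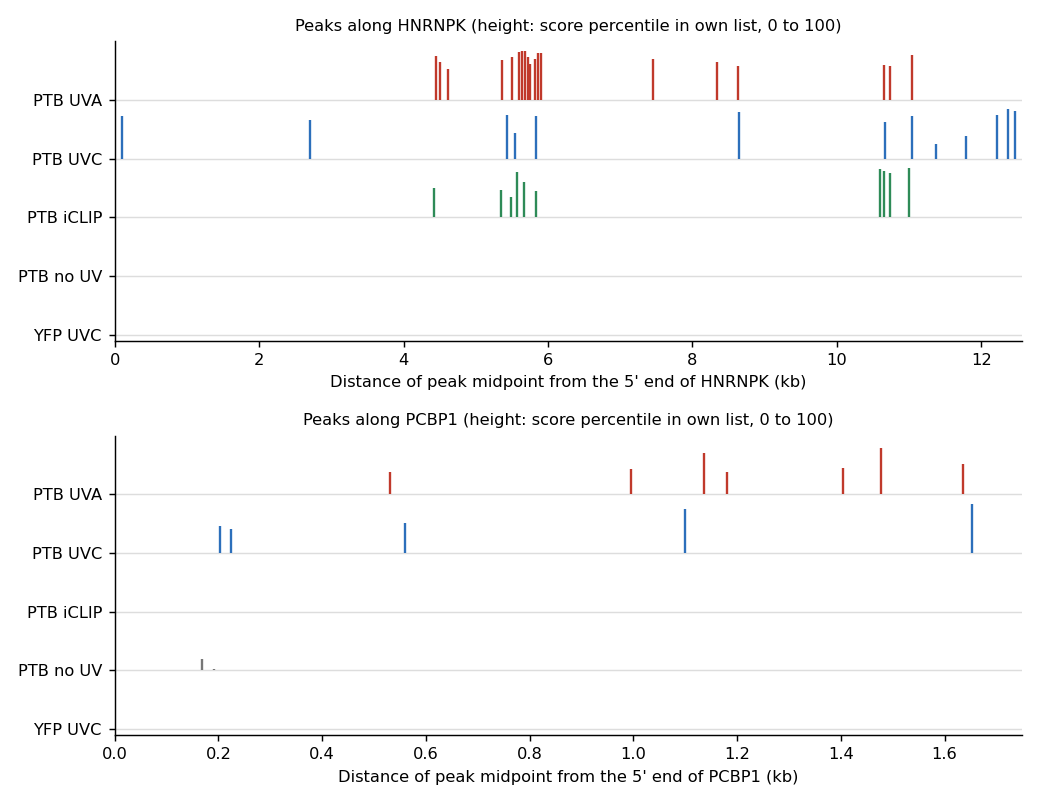
Each line is 1 peak of HNRNPK (upper panel) or PCBP1 (lower panel), placed by the distance of its midpoint from the 5′ end of the gene (kb) in the 5 lists, with the percentile of its score in its own list (0 to 100) as its height. HNRNPK shows the UVA run between nt 5338 and 5941 and no peak of the short control lists, and PCBP1 shows no iCLIP peak.

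The highest UVC peak of HNRNPK lay at nt 12335 to 12412 (score 166), 160 nt before the 3′ end, and it overlapped no UVA or iCLIP peak. The last UVA peak of the gene ended 1471 nt before that end and the last iCLIP peak 1516 nt before it. The UVC list had 8 of its 13 peaks in the 3′ part, 3 in the middle part and 2 in the 5′ part. UVA peaks numbered 0, 15 and 4 and iCLIP peaks 0, 6 and 4 from the 5′ to the 3′ part.

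PCBP1, the short intronless gene, had 7 UVA and 5 UVC peaks and no iCLIP peak, against 2 no-UV peaks and no YFP peak. Because of its length these made 4 peaks per kb in UVA and 2.86 in UVC, and the UVA peaks covered 384 nt, or 21.9% of the gene. The UVC peaks covered 164 nt (9.37%). UVA scores were 79, 91, 319, 76, 99, 624 and 131 from 5′ to 3′, with the highest at nt 1425 to 1531. UVC scores were 21, 18, 22, 37 and 170, with the highest at nt 1604 to 1701, 49 nt before the 3′ end. That UVC peak shared 83 nt with the last UVA peak, of score 131. The first 2 UVC peaks formed a spaced pair, and the first of them shared 4 nt with a no-UV peak at nt 175 to 209, whose score was 15. Reads from PCBP1 can be hard to tell from those of related copies such as PCBP2, and the sources used here do not give how reads that fit several places were treated.

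In each gene the highest UVC peak lay toward the 3′ end: 1332 nt before it in PCBP2, 160 nt in HNRNPK and 49 nt in PCBP1. The highest UVA peaks lay further inside. Whether these positions are in a coding part, an intron or an untranslated part was not placed, since no hg19 annotation was used here. RefSeq's newer build lists PCBP2-OT1 inside PCBP2, MAP3K12 overlapping PCBP2 on the other strand, PCBP1-AS1 opposite PCBP1, and HNRNPK-AS1 and RMI1 opposite HNRNPK. None of the 5 lists had a peak on the opposite strand within any of the 3 spans. The microRNA gene MIR7-1 lies inside HNRNPK on the same strand, and its distance from the peaks was not tested.

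The lists were then compared peak by peak, counting an overlap of at least 1 nt. Of the PCBP2 UVA peaks, 13 of 35 (37.1%, exact Clopper-Pearson 95% interval 21.5 to 55.1%) overlapped an iCLIP peak, against 20.4% of the whole UVA list and 35% of the UVA peaks scoring at least 170, the lowest PCBP2 score. In the other direction, 10 of 22 PCBP2 iCLIP peaks (45.5%, interval 24.4 to 67.8%) overlapped a UVA peak, against 25.9% of the list and 34.2% of those scoring at least 64. These score minimums do not match scores, as the median PCBP2 peak scored 486 in UVA and 126 in iCLIP. Both values for peaks at or above the minimum lie inside the PCBP2 intervals. These intervals give counting error alone and take each peak as independent, though many touch.

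The shares with UVC in PCBP2 were 9.68 to 18.2%, near those of list peaks at or above the lowest PCBP2 score. A UVC peak was overlapped by 6 of 35 UVA peaks (17.1%, interval 6.56 to 33.6%), against 13.6% of the whole list and 24.1% of the UVA peaks scoring at least 170. It was overlapped by 4 of 22 iCLIP peaks (18.2%, interval 5.19 to 40.3%), against 9.59% of the list and 15.8% of those scoring at least 64. From the UVC side, 4 of 31 peaks lay on a UVA peak (12.9%, interval 3.63 to 29.8%), against 9.61% of the list and 12.9% of the UVC peaks scoring at least 17. On an iCLIP peak lay 3 of 31 (9.68%, interval 2.04 to 25.8%), against 5.45% of the list and 7.16% of those scoring at least 17. None of the paired UVC peaks overlapped a UVA or an iCLIP peak. Leaving the pairs out therefore kept the counts of 4 and 3 and lowered the total to 13 (30.77% and 23.08%). No whole-list share without pairs is given, so these 2 values have no background and cannot be set against the list shares above.

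Distances to the nearest peak of another list were shorter in PCBP2 than in the whole lists. The median PCBP2 UVA peak lay 26 nt from an iCLIP peak, against 1393 nt in the whole list, and 58 nt from a UVC peak, against 1133 nt. The median PCBP2 UVC peak lay 401 nt from a UVA peak, against 5419 nt in the whole list, and 3957 nt from an iCLIP peak, against 6394 nt. A gene chosen by its dense peaks has short distances by that choice.

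HNRNPK shares were computed in the same way, and a gene with dense peaks in several lists has more overlap by that choice, so they are given as a description. All 10 iCLIP peaks of HNRNPK overlapped a UVA peak (100%, interval 69.2 to 100%), against 25.9% of the list and 31.6% of the iCLIP peaks that scored at least 36. From the UVA side, 12 of 19 peaks lay on an iCLIP peak (63.2%, interval 38.4 to 83.7%), against 20.4% of the list and 33.7% of the UVA peaks that scored at least 145. Touching peaks of 1 stretch supply much of both counts.

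A UVC peak was overlapped by 6 of 19 HNRNPK UVA peaks (31.6%, interval 12.6 to 56.6%), against 13.6% of the list and 23.2% of UVA peaks scoring at least 145. That HNRNPK share was 10.53% where 50% of the peak had to be covered and 57.89% within 50 nt. Of the iCLIP peaks, 4 of 10 lay on a UVC peak (40%, interval 12.2 to 73.8%), against 9.59% of the list and 13.2% of those scoring at least 36. The HNRNPK share was 20% with 50% covered and 80% within 50 nt. None of the HNRNPK UVC peaks was in a close pair, while pairs made up 50.6% of the UVC list. The UVC list shares that follow are thus not a like background for them. Of the UVC peaks, 5 of 13 lay on a UVA peak (38.5%, interval 13.9 to 68.4%, and 15.38% with 50% covered), against 9.59% of UVC peaks scoring at least 16. On an iCLIP peak lay 4 of 13 UVC peaks (30.8%, interval 9.09 to 61.4%), against 5.47% of those scoring at least 16. That minimum kept 101670 of 118434 UVC peaks, so it scarcely narrowed the list. PCBP1 shared 2 of 7 UVA peaks with UVC and 2 of 5 UVC peaks with UVA, too few for a share to be read.

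**Figure D4:**
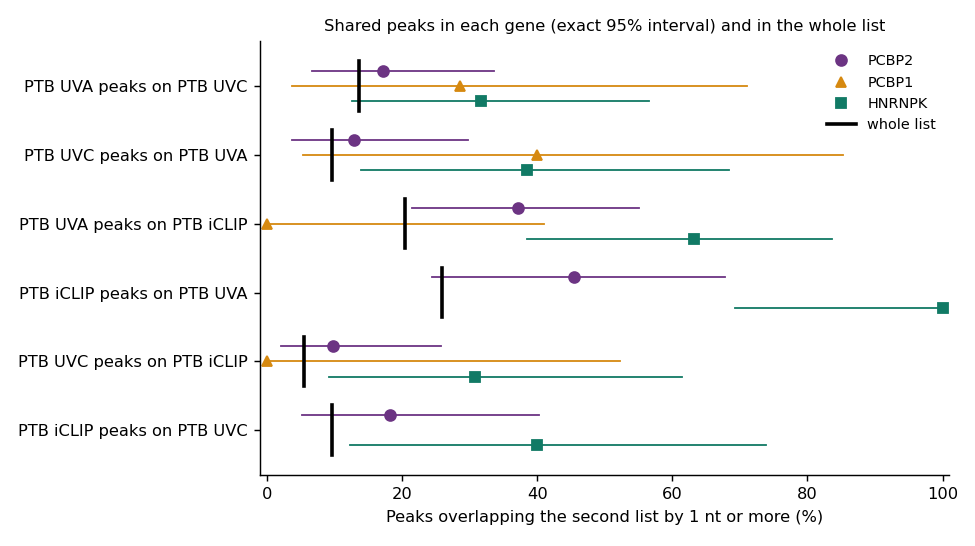
Each marker is the percent of a gene's peaks in the first list that overlap a peak of the second list by 1 nt or more, with its exact 95% interval, and black bars are the percent for the whole first list. PCBP2 intervals include or lie close to the bar, and HNRNPK stands at 63.2% and 100% for UVA on iCLIP and iCLIP on UVA.

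To set the density in its background, each strand of the genome was cut into windows as long as a gene, and those with at least 1 site of a PTB list were kept. At least 22 UVA sites, the number in PCBP2, lay in 0.154% of 35780 windows of its length, at least 20 UVC sites in 0.0559%, and at least 18 iCLIP sites in 0.0587%. Reaching all 3 numbers at once was found in 1 window (0.00279%), on chromosome 11. For HNRNPK, 12 UVA sites were reached in 0.608% of 54569 windows, 12 UVC sites in 0.119%, 7 iCLIP sites in 1.77% and all 3 together in 0.0257% (14 windows). For PCBP1, 5 UVA sites were reached in 1.04% of 111953 windows and 4 UVC sites in 0.692%. The windows were not centred on genes, so a gene cut by a window edge counts for less there, and the 3 genes were picked for their density. No window that reached all 3 numbers overlapped PCBP2 or HNRNPK itself. The percents therefore can understate how many places are as dense.

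Few peaks lay just outside the genes. Upstream of PCBP2 the nearest peak lay 5499 nt away in UVA, 5480 nt in UVC and 5485 nt in iCLIP, and downstream it lay 20673, 508879 and 22339 nt away. Downstream of HNRNPK the nearest lay 29398 nt away in UVA, 29166 nt in UVC and 29029 nt in iCLIP. Downstream of PCBP1 a UVA peak with a score of 655 lay 4899 nt away and an iCLIP peak 5947 nt away, outside the span.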

How the data were processed

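Peaks were analysed as deposited, 1 pooled list per group from 8 samples in 4 groups (2 each), and 1 list of published iCLIP peaks. Mapping used Bowtie 1.1.2, per the submitters' processing notes, which name hg19 and dm3 as builds. The sources used here do not give the peak caller, the pooling or the role of dm3. The deposited score was limited to 1000, and a listed score of 0 with a p-value of 0 was set to that limit. The deposited p-value of each peak reached at most 0.05. Positions counted from 0 were written 1-based. Depth per sample is unknown, and intervals cover counting error only.

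Same-strand peaks overlapping the 3 spans were taken, and peaks within 20 nt were merged into sites. Overlap needed 1 nt. Shares have exact Clopper-Pearson 95% intervals. Overlap counts were checked with bedtools 2.31.1 (20 of 20 pairs gave the same count), and the code was tested on simulated data (5 of 5 draws recovered). Python 3.11.15, pandas 2.3.3, numpy 2.4.6, scipy 1.17.1 and matplotlib 3.10.9 were used.

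The members and gene lists were chosen with earlier results of these data known. Peaks named are the 3 highest scores per gene and list and every site in all 3 PTB lists, while the other peaks given, the control peaks among them, were chosen after their values were seen. Alternatives were another merging distance, stricter or looser overlap, a score minimum, and the close pairs left out. Motifs and other KH genes need an hg19 genome or annotation and were not analysed here.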

Additional observations from a re-analysis of the deposited data

How the results depend on the processing

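Of 202 alternative values, 17 moved, which means a change of over 1.5 times in a count or score, or a share that left its 95% interval. With so few peaks the intervals are wide: 10 further shares changed by over 1.5 times inside them. No paired analysis was possible because each group was deposited as 1 pooled list. Leaving out the close pairs, a choice made after seeing the data, gave 13 UVC peaks and 12 UVC sites in PCBP2, 3 UVC peaks in PCBP1, and 30.77% of PCBP2 UVC peaks on a UVA peak and 23.08% on an iCLIP peak. Those 2 shares rose through the smaller total alone and have no whole-list share beside them. Requiring a score at or above the list median gave 4 UVA peaks and 3 UVA sites in PCBP1, and 1 PCBP1 UVC peak and 3 HNRNPK UVC peaks in the densest 10% of the gene. The first such HNRNPK stretch then began at nt 5413 in place of nt 11356, tied with the peaks from nt 12211 on. Counting peaks within 50 nt as shared raised PCBP2 UVA peaks to 40% with UVC and 60% with iCLIP, HNRNPK UVA peaks with UVC to 57.89%, and HNRNPK iCLIP peaks with UVC to 80%. Requiring 50% of the peak to be covered left 10.53% of HNRNPK UVA peaks on UVC, 15.38% of HNRNPK UVC peaks on UVA, 20% of HNRNPK iCLIP peaks on UVC and 14.29% of PCBP1 UVA peaks on UVC, the last 57.14% within 50 nt. With a score minimum, the YFP peaks of PCBP2 and the no-UV peaks of PCBP1 went to 0. These moves follow from the stricter or looser rule itself. The number of samples behind each list, the unknown depth and the lack of replicates limit every comparison between lists.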
